A study of Trichoderma reesei RUT C-30 with 16 samples.

Results

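The transcriptome of lactose-fed mycelium was compared with that of glucose-fed mycelium while both were under secretion stress from dithiothreitol (DTT). The 8 libraries of this comparison, of 16 in the series, are the 4 from lactose cultures with DTT (LD) and the 4 from glucose cultures with DTT (GD), chosen by their labels. Each condition holds 2 libraries from Δ*res2* and 2 from Rut-C30. Rut-C30 is a cellulase hyperproducing strain of *Trichoderma reesei* derived from QM6a by mutagenesis, with a truncated gene of the carbon catabolite repressor CRE1. Δ*res2* is Rut-C30 with the transcription factor gene *res2* replaced by a hygromycin resistance cassette, and which transformant was sequenced is not given in the sources used here. All cultures were first grown on glucose and then fed with lactose or with glucose, and the LD and GD cultures received 10 mM DTT for 2 h at the end. The fed-batch lasted 48 h by the description of the series, and the methods of the study give a shorter time. The duplicates were separate cultures. The question of the comparison is which carbon source differences persist under secretion stress, so that the 8 libraries without DTT (lactose, LC; glucose, GC) serve as the second comparison, LC/GC.

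*T. reesei* lives on plant cell wall polymers, which it breaks down with secreted cellulases and hemicellulases. Lactose acts as a soluble inducer of these genes through the activator XYR1 and the membrane protein CRT1, whereas glucose does not induce them. DTT reduces disulfide bonds, so that proteins misfold in the endoplasmic reticulum (ER). The unfolded protein response (UPR) then raises chaperone and foldase genes such as *bip1* and *pdi1*, and in *T. reesei* the transcript levels of genes for secreted enzymes fall, a response known as repression under secretion stress.

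The LD and GD libraries held between 20351784 and 35679977 counts on 10008 genes. Values below are normalized counts, that is counts scaled to the library sizes with TMM factors over all 16 libraries. They measure a share of the RNA, and fewer hyphae that express a gene cannot be told apart from less RNA per hypha. The DTT label was checked with *bip1*, the gene of the ER chaperone BiP, which lay between 724125 and 749948 normalized counts in LD and between 432123 and 799888 in GD, against 72702 to 104582 in LC and 14710.0 to 23827 in GC. The carbon source label was checked with *cbh1*, which lay between 2174639 and 3195007 in LC and between 877 and 126082 in GC. The sources used here do not pair *res2* with a gene of the count tables. The gene TrA1112W, picked after the values were seen, had at most 2.7 normalized counts in every Δ*res2* library and between 2447 and 6921 in every Rut-C30 library.

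The 4 LD libraries were close to each other and the 4 GD libraries were not. The correlation of log2 values across genes lay between 0.992 and 0.996 for pairs of LD libraries and between 0.917 and 0.976 for pairs of GD libraries, where the Δ*res2* GD library of replicate 1 stood apart with 0.917 to 0.941. The biological coefficient of variation was 0.0618 over the LD libraries and 0.525 over the GD libraries. In Rut-C30 the glucose libraries carry numbers from another run of library numbers than the lactose libraries, so that in this strain the run and the carbon source cannot be told apart. In Δ*res2* all libraries belong to 1 run of numbers.

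Under DTT, 941 genes were called as different between lactose-fed and glucose-fed cultures. In LD/GD, 460 of the 8645 genes tested were upregulated (5.32%) and 481 were downregulated (5.56%) at an adjusted p under 0.05 (edgeR's quasi-likelihood test with strain as covariate, Benjamini-Hochberg adjustment). The median log2 fold change was 1.10 among the upregulated and -1.05 among the downregulated genes, against -0.06 over all genes tested. Beyond a log2 fold change of 2 in either direction there were 98 upregulated and 70 downregulated genes. The 4 LD libraries lay above the 4 GD libraries in 444 of the 460 upregulated genes, against 12.9% of all genes tested, and below them in 456 of the 481 downregulated genes, against 11.1%. Within Δ*res2*, both LD libraries lay above both GD libraries in 460 of the 460 upregulated genes and below them in 478 of the 481 downregulated genes. The share of all genes in this order within Δ*res2* was not counted, and so few libraries separate more easily than the full groups. The same libraries made the calls, so these counts describe the called genes and are no further test. Tested on its own with edgeR, Δ*res2* gave 0 calls in either direction at 921 genes with an unadjusted p under 0.05, and Rut-C30 gave 277 genes up and 250 down.

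No gene was called for a different response of the 2 strains (0 of 8763, 0%) with edgeR, while 253 genes had an unadjusted p under 0.05 and DESeq2 called 13. This count was 2059 when replicate 2 of Δ*res2* GD was left out, which leaves replicate 1 alone for that group. Across all genes tested the log2 fold changes of the 2 strains had a Pearson correlation of 0.658, a description over genes, which are not independent.

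The counts depended on single libraries. Without replicate 1 of Δ*res2* GD, 1414 genes were upregulated (16.2%) and 1458 downregulated (16.7%), which include all 460 and 479 of the 481. Leaving out 1 LD library gave 98 and 57 genes up and down (Rut-C30 replicate 1), 90 and 53 (Rut-C30 replicate 2), 110 and 62 (Δ*res2* replicate 1) or 87 and 50 (Δ*res2* replicate 2). Without replicate 2 of Rut-C30 GD the counts were 273 and 226. Of the 80 genes called in LD/GD that are named below, all 80 kept their sign in each of these fits and 30 kept their call in all 8. With 1 LD library left out, between 31 and 34 of the 80 calls held, and the highest adjusted p of the 80 genes over the 8 fits was 0.162 (edgeR). All 80 calls held with DESeq2, 72 with voom, 71 in a fit of all 16 libraries, 33 in Rut-C30 alone and 0 of 79 in Δ*res2* alone.

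All 12 paired genes of the cellulose degradation list were higher in lactose under DTT, and *cel5b*, also listed, could not be paired. Of the 12 genes tested of this group, 12 were upregulated, against 5.32% of all genes, with a median log2 fold change of 3.65 (3.44 without replicate 1 of Δ*res2* GD). In all 12 the LD libraries lay above the GD libraries. The study names most of the genes in this and the following groups because they changed in these samples, so the direction of a group is not independent evidence. List members were paired with the count tables only through the study's lists of differentially expressed genes from these samples. Of the 1729 genes paired in this way, 184 were upregulated and 145 downregulated in LD/GD. These shares are higher than those of all genes, which are thus a low base for this and the following groups.

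*cbh1* (chromosome VII, 68371-70046), the gene of the main cellobiohydrolase, had 12583, 13485, 15955 and 12428 normalized counts in LD (here and below Δ*res2* replicates 1 and 2, then Rut-C30 replicates 1 and 2) and 512, 1035, 2042 and 531 in GD. The lowest LD library stood well above the highest GD library, a log2 fold change of 3.75 ± 0.48 (SE, adjusted p = 0.00668, edgeR). *cbh2*, the other cellobiohydrolase gene, had 5908, 6129.8, 7008 and 4942 in LD and 137, 228, 1194 and 172 in GD, a log2 fold change of 4.05 ± 0.73 (adjusted p = 0.0183, edgeR). The GD level of *cbh2* was set apart by replicate 1 of Rut-C30, which was the highest of the 4. The endoglucanase gene *egl1* had 3724, 4044, 3573 and 3193 in LD and 62.2, 364, 329 and 545 in GD (log2 fold change 3.55 ± 0.57, adjusted p = 0.0137, edgeR). Replicate 1 of Δ*res2* was lowest among the GD libraries of *egl1*, and the groups did not overlap.

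The endoglucanase genes *egl2*, *cel12a* and *cel45a* had log2 fold changes of 3.56, 3.82 and 4.15. The lytic polysaccharide monooxygenase genes *cel61a* and *cel61b*, whose products cleave cellulose by oxidation, had 3.56 and 2.65. The largest log2 fold changes of the group were those of *cip1* (4.48), which codes for a cellulose-binding protein, and *cip2* (4.88), the gene of a glucuronoyl esterase that was close to 0 counts in 3 of 4 GD libraries. The smallest were those of the xyloglucanase gene *cel74a* (1.15 ± 0.20) and of *swo1* (2.13 ± 0.22), whose product swollenin loosens cellulose. *cel74a* had 2757, 2793, 2962 and 2722 in LD and 835, 1213, 1804 and 1234 in GD, so that its GD cultures held a higher share of the LD level than those of *cbh1*. Calls of *cbh1*, *cel12a*, *cel45a*, *cel61a*, *cip1* and *swo1* held in all 8 fits with 1 library left out. The other 6 were lost without any 1 of the LD libraries, and that of *cel61b* also without either Rut-C30 GD library, with adjusted p up to 0.0947. With voom the calls of *cip2* and *cel61b* were lost, and with all 16 libraries those of *cel74a*, *cel61b* and *egl1*.

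**Figure D1:**
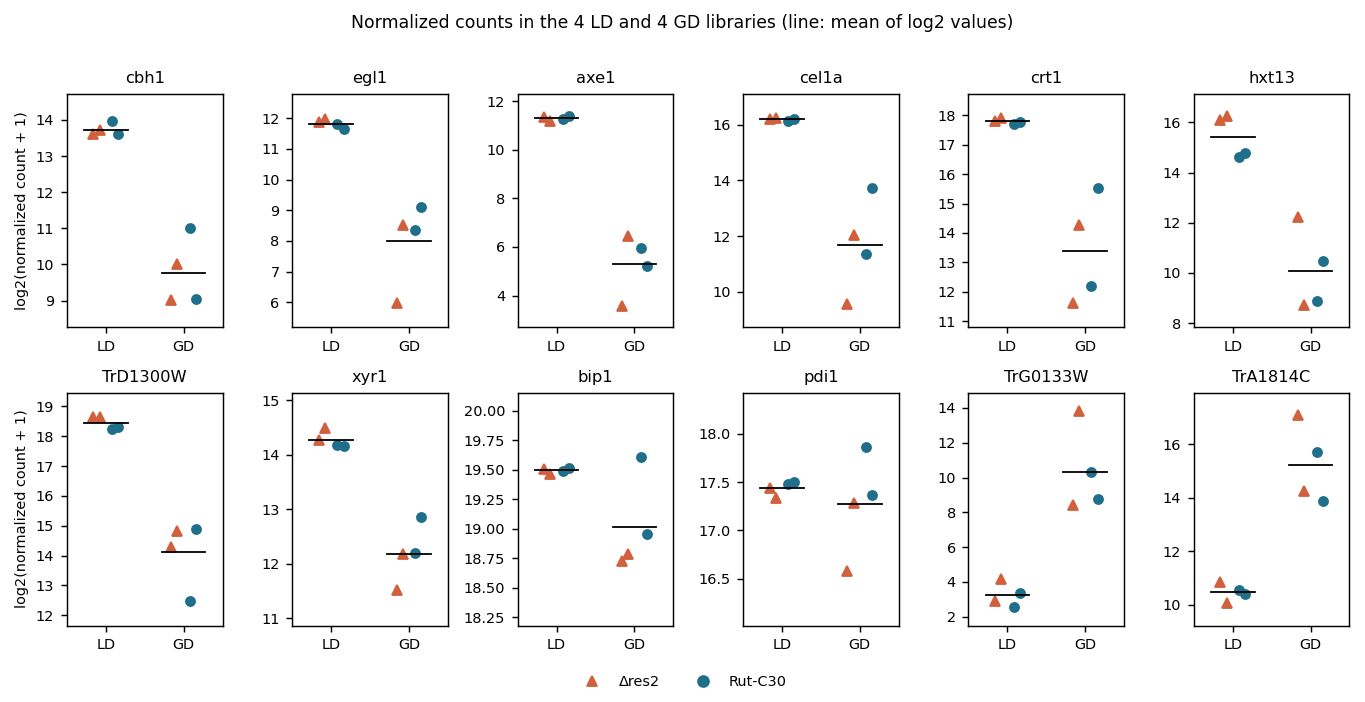
Normalized counts on a log2 scale (y axis, log2 of the normalized count plus 1) of 12 genes in the 4 LD and the 4 GD libraries (x axis). Triangles are Δ*res2*, circles Rut-C30 and lines the mean of the log2 values. LD libraries lie above GD for the cellulase, esterase, β-glucosidase, transporter and *xyr1* genes, overlap GD for *bip1* and *pdi1*, and lie below GD for TrG0133W and TrA1814C. Where they lie above GD they are close together, except for *hxt13*, where those of Δ*res2* are higher.

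The β-glucosidase genes, whose products cleave cellobiose and other short glucans, were mostly upregulated, with 6 of 8 up (5.32% of all genes), 1 down (5.56% of all genes) and a median log2 fold change of 2.05. *cel1a*, which codes for an intracellular enzyme, had 74829, 77879, 71032 and 74690.4 in LD and 751, 4211, 2632 and 13358 in GD, a log2 fold change of 4.06 ± 0.80 (adjusted p = 0.0237, edgeR). The GD libraries of *cel1a* ranged widely, and even the highest, replicate 2 of Rut-C30, stayed below every LD library. *cel1b*, its relative of the same family, had a log2 fold change of 3.14 ± 0.54, and *bgl1* (*cel3a*), the gene of the main extracellular enzyme, one of 3.86 ± 0.78. *bgl1* was low under DTT, with 77.3, 92.1, 72.9 and 54.1 in LD and 2.44, 0, 14.8 and 2.68 in GD.

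*cel3e* (2.13), *bgl3j* (1.97) and *cel3c* (1.20) were upregulated to a smaller extent. *cel3b* was downregulated, with 183, 153, 220.5 and 189.6 in LD and 453, 275, 791 and 349.9 in GD, a log2 fold change of -1.32 ± 0.31 (adjusted p = 0.0382, edgeR). *cel3d* did not pass the test (0.27 ± 0.39, adjusted p = 0.688, edgeR), and its sign turned to -0.013 without replicate 1 of Δ*res2* GD. The calls of *cel3e* and *bgl3j* held in all 8 fits with 1 library left out. The other 5 were lost without any 1 of the LD libraries, that of *cel3b* also without replicate 1 of Rut-C30 GD and that of *bgl1* without replicate 2, with adjusted p up to 0.142.

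Among the genes for the breakdown of xylan, arabinan, mannan and galactosides, 7 of 13 were upregulated, against 5.32% of all genes, and 1 was downregulated, against 5.56%, with a median log2 fold change of 2.49. *axe1* (chromosome V, 2216541-2217596), the gene of acetyl xylan esterase, had 2626, 2319.9, 2448 and 2676 in LD and 10.97, 85.6, 61.3 and 35.7 in GD. No other gene of the groups had a larger increase, with a log2 fold change of 5.70 ± 0.58 (adjusted p = 0.00387, edgeR). The xylanase gene *xyn1* had 286, 378, 357 and 199 in LD and 12.2, 36.9, 50.4 and 30.3 in GD, so that lactose-fed and glucose-fed cultures stood apart at low levels (log2 fold change 3.24 ± 0.45, adjusted p = 0.00854, edgeR).

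The xylanase genes *xyn5* (3.94) and *xyn2* (2.49), the mannanase gene *man1* (3.71), the arabinofuranosidase gene *abf3* (4.40) and the β-xylosidase gene *bxl1* (1.23) were the other upregulated members. *abf2*, another arabinofuranosidase gene, was downregulated, with 47.5, 64.9, 84.3 and 73.1 in LD and 251, 386, 248 and 1305 in GD (log2 fold change -2.92 ± 0.53, adjusted p = 0.0185, edgeR). Its GD level was highest in replicate 2 of Rut-C30, and the groups did not overlap. The 5 members that did not pass were *abf1* (0.50), *bga1* (0.47), which codes for a β-galactosidase that can split lactose, *glr1* (1.06), *xyn4* (2.10) and *xyn3* (2.78). Of these, *xyn4* was called without replicate 1 of Δ*res2* GD (1.70). Of the 8 calls, 4 held with any 1 library left out. The others were lost without LD libraries, that of *abf3* only without replicate 1 of Rut-C30 LD (adjusted p = 0.0504) and those of *abf2*, *xyn2* and *bxl1* without any 1 of them. The call of *bxl1* was also lost without either Rut-C30 GD library (adjusted p up to 0.141). With voom the calls of *xyn1*, *xyn2* and *bxl1* were lost, and with all 16 libraries those of *xyn2* and *bxl1*.

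**Figure D2:**
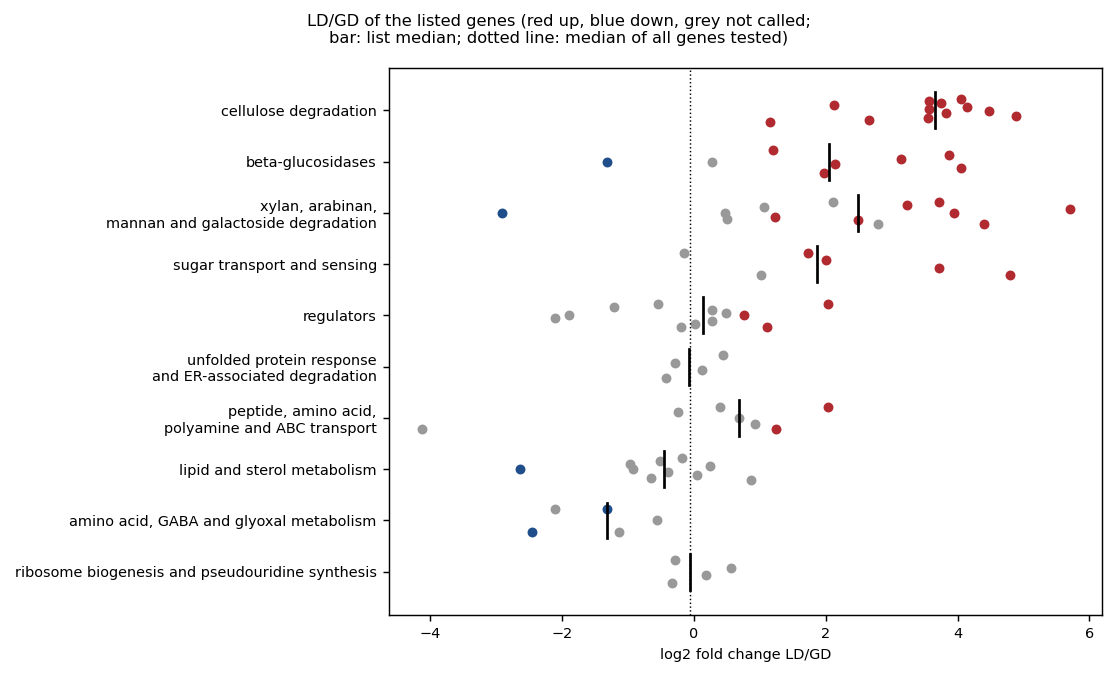
Log2 fold change in LD/GD (x axis) of each gene tested in 10 gene groups (y axis). Red points were upregulated, blue points downregulated and grey points not called, bars are group medians and the dotted line is the median of all genes tested (-0.06). The 12 points of cellulose degradation are all red, whereas the 4 points of the UPR group and the 4 of the ribosome biogenesis group are grey.

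Of the 6 genes for sugar transport and sensing, 4 were upregulated, against 5.32% of all genes, with a median log2 fold change of 1.87. *crt1* (chromosome III, 3954123-3956103), which codes for a lactose permease and cellulase inducer sensor, had 231049, 244712, 212224 and 222596 in LD and 3105, 19627, 4732 and 46771 in GD. The GD libraries ranged widely below the tight LD libraries, with a log2 fold change of 3.72 ± 0.89 (adjusted p = 0.0408, edgeR). This call was lost without any 1 of the LD libraries, replicate 1 of Rut-C30 GD or replicate 2 of Δ*res2* GD (adjusted p up to 0.116).

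The hexose transporter gene *hxt13* had 69612, 77469.9, 24886 and 27744 in LD and 4752, 416, 465 and 1431 in GD, a log2 fold change of 4.79 ± 0.79 (adjusted p = 0.0145, edgeR). The Δ*res2* libraries were highest in LD, and the difference of the strains in LD/GD was 0.00 ± 1.61 and was not called. The sugar transporter genes *str1* (2.01) and *xlt1* (1.74) also rose, and both, like *hxt13*, lost their call without any 1 of the LD libraries, *xlt1* also without replicate 1 of Rut-C30 GD or replicate 2 of Δ*res2* GD (adjusted p up to 0.121). TRIREDRAFT_61278 (1.02, called at 0.73 without replicate 1 of Δ*res2* GD) and the receptor gene *csg1* (-0.15) did not pass. The pentose catabolism genes *xki1* (-0.21) and *xdh1* (-0.13) had fold changes near that of all genes.

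TrD1300W (chromosome IV, 4080747-4082337), annotated with transmembrane transport, was among the 12 genes with the largest increase among those that averaged 100 or more normalized counts over the 8 libraries. *axe1*, *cip1*, *abf3*, *cel45a* and *hxt13* were others of the 12. TrD1300W had 406668, 412296, 306249.9 and 321765 in LD and 20143, 28901, 5646 and 30474 in GD, a log2 fold change of 4.08 ± 0.55 (adjusted p = 0.00800, edgeR). In each strain both LD libraries were above both GD libraries by a wide margin.

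Of the 12 regulator genes tested, 3 were upregulated, against 5.32% of all genes, and none was downregulated (0), against 5.56%, with a median log2 fold change of 0.14. *xyr1*, the gene of the main activator of cellulase and xylanase genes, had 19589, 22995, 18518 and 18285 in LD and 2915, 4632, 4684 and 7375 in GD, a log2 fold change of 2.04 ± 0.28 (adjusted p = 0.00823, edgeR). The lowest LD library stood clearly above replicate 2 of Rut-C30, the highest GD library, and the call held in all 8 fits with 1 library left out. *ace3*, another activator of cellulase genes, had 4107, 4532, 3836 and 3826 in LD and 1959, 2399.9, 2322 and 2824 in GD (0.76 ± 0.14, adjusted p = 0.0210, edgeR). The homeobox gene *hom3* had a log2 fold change of 1.11 ± 0.21. The calls of *ace3* and *hom3* were lost without any 1 of the LD libraries, and that of *hom3* without replicate 2 of Rut-C30 GD (adjusted p up to 0.0943). *vib1*, needed for cellulase expression, did not pass (0.49 ± 0.25, adjusted p = 0.240, edgeR), nor did the repressor gene *ace1* (-0.54), nor TRIREDRAFT_105784 (-1.90), listed as a DUF636 protein. Without replicate 1 of Δ*res2* GD both were called down, TRIREDRAFT_105784 at -2.28 (adjusted p = 0.000833, edgeR) and *ace1* at -0.49 (adjusted p = 0.0479, edgeR).

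Of the 6 other genes among the 12, TrA0865C (chromosome I, 2613575-2615555) had 2725, 2960.3, 2611 and 2746 in LD and 10.97, 6.71, 60.3 and 4.46 in GD. All 4 LD libraries were alike, and replicate 1 of Rut-C30 was the highest GD library (log2 fold change 7.15 ± 0.82, adjusted p = 0.00577, edgeR). TrG0929W had 743, 768, 707 and 648 in LD and 34.1, 16.8, 22.7 and 21.4 in GD, the smallest standard error of the 12 (4.88 ± 0.25, adjusted p = 0.00104, edgeR). TrG0885-2W (5.66), TrD1296C (4.62), TrB1555C (4.37) and TrD1145W (4.13) were the others. TrA0867C and TrF0477C, both low under DTT, were among the genes with the largest increase in LD/GD and LC/GC alike. TrA0867C lies close to TrA0865C and had 30.9, 23.02, 17.8 and 25.9 in LD, with 0 counts in each GD library. TrF0477C, annotated with carbohydrate metabolism, had 24.3, 29.3, 37.3 and 19.04 in LD and 0, 0, 1.98 and 0 in GD, so that 3 of its 4 GD libraries were at 0 too. The call of TrA0867C was lost without any 1 of the LD libraries, that of TrD1296C without replicate 2 of Δ*res2* LD or either Rut-C30 LD library and that of TrF0477C without replicate 1 of Rut-C30 LD (adjusted p up to 0.0698), and the other calls of this paragraph held in all 8 fits.

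Of the UPR and ER-associated degradation genes, *bip1*, *pdi1*, *hrd1* and *lcl2* were tested between the carbon sources under DTT. None of the 4 was called by edgeR (0 up, 0 down), which lies near the 5.32% of all genes up and 5.56% down, with a median log2 fold change of -0.08. *bip1* had 742106, 724125, 735901 and 749948 in LD and 432123, 450396, 799888 and 508289.8 in GD. Replicate 1 of Rut-C30 GD was above every LD library and the other GD libraries were below, with a log2 fold change of 0.44 ± 0.32 (adjusted p = 0.412, edgeR). *pdi1*, the gene of protein disulfide isomerase, had 177594, 165269, 183164 and 185262 in LD and 97823, 159336, 238589.6 and 168751 in GD (0.12 ± 0.29, adjusted p = 0.819, edgeR). Its groups overlapped, and the sign turned to -0.056 without replicate 1 of Δ*res2* GD.

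The genes of ER-associated degradation, which removes misfolded proteins, were *hrd1* (-0.28 ± 0.14, adjusted p = 0.213) and *lcl2* (-0.43 ± 0.25, adjusted p = 0.309, edgeR). *lcl2* was called down without replicate 1 of Δ*res2* GD (-0.60, adjusted p = 0.0275, edgeR), and *hrd1* was called down by DESeq2 (-0.28, adjusted p = 0.0146). The catalase gene *cta1* had 949, 1047, 1681 and 1389 in LD and 35.4, 10202, 878 and 632 in GD. The Δ*res2* duplicates lay at both ends of the GD range, and the log2 fold change of -0.68 ± 1.47 was not called (adjusted p = 0.791, edgeR). Without DTT *cta1* had at most 3.73 normalized counts in LC and 7.55 in GC.

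In LC/GC, without DTT, the same 4 genes were all upregulated, against 9.98% of all genes (880 of 8821 up and 1019, 11.6%, down), with a median of 1.29. *bip1* had 94499.5 ± 14667 in LC and 19873 ± 3925 in GC (mean ± SD, n = 4), a log2 fold change of 2.20 ± 0.26 (adjusted p = 0.00197, edgeR). The difference of the lactose effects, LD/GD minus LC/GC, was -1.80 ± 0.39 for *bip1* (adjusted p = 0.0107), -1.50 ± 0.25 for *hrd1* (adjusted p = 0.00253) and -1.73 ± 0.31 for *lcl2* (adjusted p = 0.00375), each called by edgeR, whereas that of *pdi1* was -1.22 ± 0.37 and not called (adjusted p = 0.0539). Over all genes, 889 of 8947 (9.94%) were called for this difference.

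**Figure D3:**
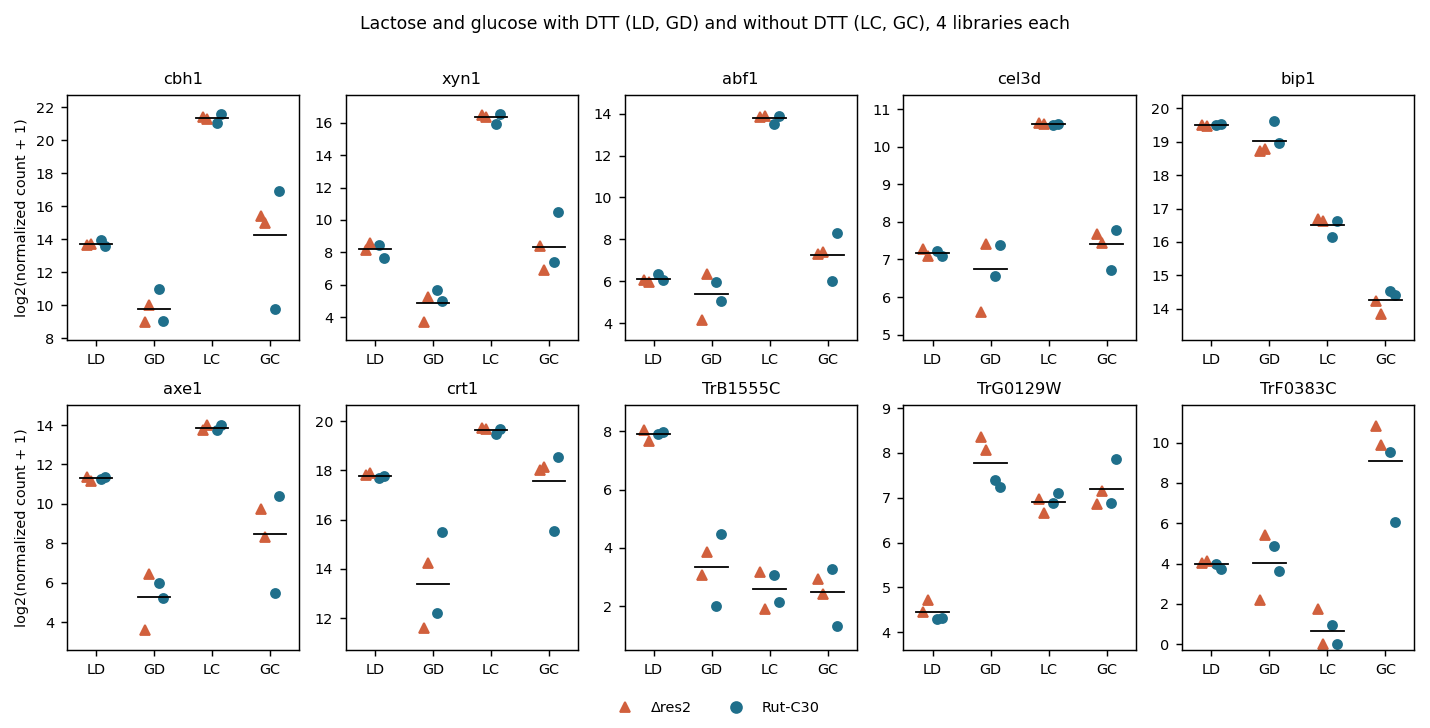
Normalized counts on a log2 scale (y axis, log2 of the normalized count plus 1) of 10 genes in LD, GD, LC and GC (x axis, 4 libraries each). Triangles are Δ*res2*, circles Rut-C30 and lines the mean of the log2 values. *cbh1*, *xyn1* and *axe1* keep a gap between LD and GD at levels below LC, *abf1* and *cel3d* are set apart by lactose in LC and GC but not in LD and GD, *bip1* is high in every DTT library, TrB1555C is high in LD alone, TrG0129W is low in LD alone, and TrF0383C is high in GC alone.

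The decrease with lactose under DTT was largest in genes without a symbol in the sources used here. TrG0133W (chromosome VII, 373876-375457) had 6.63, 16.7, 4.86 and 9.14 in LD and 335, 14468, 1253 and 426 in GD, a log2 fold change of -8.18 ± 1.42 (adjusted p = 0.0167, edgeR). Replicate 2 of Δ*res2* was by far the highest GD library, and all others were still above every LD library. TrA1814C (chromosome I, 5840599-5840937) had 1835, 1075, 1516 and 1342 in LD and 139598, 19513, 53398 and 15257 in GD (-5.20 ± 0.80, adjusted p = 0.0124, edgeR). Here replicate 1 of Δ*res2* was the highest GD library. TrE0166C had 78.4, 49.2, 62.4 and 53.3 in LD and 614, 3083, 3143 and 548 in GD (-4.94 ± 0.74, adjusted p = 0.0111, edgeR).

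Less variable decreases were those of TrF0589C, with 129, 131, 220.5 and 195 in LD and 1414, 929.8, 1461 and 1655 in GD (-3.06 ± 0.18, adjusted p = 0.00141, edgeR), and of TrG0129W, with 20.99, 25.1, 18.6 and 19.04 in LD and 328, 269, 167 and 151 in GD (-3.39 ± 0.24, adjusted p = 0.00141, edgeR). In both genes the gap between the conditions was wider than the range within LD, and the groups were far from overlapping. TrG0132W (-4.32), annotated with aflatoxin biosynthesis, TrG0131C (-4.26), TrC0445W (-4.51), annotated with transmembrane transport, TrF0049W (-4.81), TrB0102W (-4.54), TrA0775C (-3.70) and TrB1688W (-3.11) complete the 12. The calls of TrF0589C, TrG0129W, TrG0132W, TrA0775C and TrB1688W held in all 8 fits with 1 library left out. The other 7 were lost without 1 or more of the LD libraries, those of TrF0049W and TrB0102W also without either Rut-C30 GD library, that of TrC0445W without replicate 2 of Rut-C30 GD, and that of TrF0049W without replicate 2 of Δ*res2* GD (adjusted p up to 0.162).

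Both genes tested for glycolysis and nucleotides were downregulated, against 5.56% of all genes, and nothing is read from a group of 2. *eno1*, the gene of the glycolytic enzyme enolase, had 3706, 3358, 2118 and 1971 in LD and 11749, 13668, 8412 and 2869 in GD. Replicate 2 of Rut-C30 GD lay within the LD range, and the log2 fold change was -1.68 ± 0.33 (adjusted p = 0.0222, edgeR). *ynk1*, which codes for nucleoside diphosphate kinase, had 1128, 1084, 1124 and 1181 in LD and 13425, 2761, 3779 and 4498 in GD (-2.38 ± 0.49, adjusted p = 0.0270, edgeR). *ilv5*, of branched-chain amino acid biosynthesis, had 5345, 4707, 4558 and 4615 in LD and 51623, 12735, 26678 and 14925 in GD (-2.45 ± 0.46, adjusted p = 0.0202, edgeR). Replicate 1 of Δ*res2* was the highest GD library of *ynk1* and *ilv5*, and neither gene's groups overlapped.

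*uga1*, of the breakdown of the amino acid GABA, was also downregulated (-1.33 ± 0.30, adjusted p = 0.0344, edgeR). Thus 2 of 5 genes of amino acid, GABA and glyoxal metabolism were downregulated, against 5.56% of all genes, and none was upregulated (0). Without replicate 1 of Δ*res2* GD there were 4, with *hom6* (-1.21) and *his3* (-0.80). The calls of *eno1*, *ynk1*, *ilv5* and *uga1* were lost without any 1 of the LD libraries, those of *eno1* and *uga1* also without replicate 1 and that of *ynk1* without replicate 2 of Rut-C30 GD (adjusted p up to 0.125).

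In the other groups the calls were read against the 5.32% of all genes up and 5.56% down. The sterol glycosyltransferase gene TRIREDRAFT_77547 was the only call among 10 genes of lipid and sterol metabolism, and without replicate 1 of Δ*res2* GD there were 3. It had 318, 358, 403 and 397 in LD and 1612, 2588, 2147 and 2773 in GD, a log2 fold change of -2.64 ± 0.18 (adjusted p = 0.00141, edgeR) that held in all 8 fits. Of 4 protease genes, the trypsin-like protease gene TRIREDRAFT_106315 was upregulated (1.97 ± 0.20) and the aspartic protease gene *pep2* (-2.30 ± 0.38) and the subtilisin gene TRIREDRAFT_82623 (-1.98 ± 0.33) were downregulated. Of 7 peptide, amino acid, polyamine and ABC transporter genes, the oligopeptide transporter gene *opt2* (2.03 ± 0.48) and the ABC transporter gene *snq2* (1.25 ± 0.24) were upregulated. 1 of 6 glycosyltransferase genes was upregulated (TRIREDRAFT_122992, 1.43), and 1 of 5 redox and stress genes was downregulated (TRIREDRAFT_68941, -2.41). Nothing is read from these single calls. None of the 4 fungal cell wall hydrolase genes and none of the 4 genes of ribosome biogenesis and pseudouridine synthesis was called (0 of 4 in each). The calls of *pep2*, TRIREDRAFT_82623, *opt2*, *snq2*, TRIREDRAFT_122992 and TRIREDRAFT_68941 were lost without any 1 of the LD libraries, and those of *opt2*, *snq2* and TRIREDRAFT_68941 also without replicate 2 of Rut-C30 GD (*opt2* and TRIREDRAFT_68941 without replicate 2 of Δ*res2* GD, and *opt2* without replicate 1 of Rut-C30 GD, as well), with adjusted p up to 0.131.

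To see which differences persisted under stress, each gene's LD/GD was set beside its LC/GC. The 2 comparisons share no library. Of the 460 genes upregulated in LD/GD, 136 (29.6%) were also upregulated in LC/GC, against 9.98% of all genes tested there. These are 15.5% of the 880 upregulated in LC/GC, against 5.32% of all genes upregulated in LD/GD. Of the 481 downregulated in LD/GD, 118 (24.5%) were also downregulated in LC/GC, against 11.6% of all genes tested there. They are 11.6% of the 1019 downregulated in LC/GC, against 5.56% of all genes downregulated in LD/GD. The genes upregulated in both had a median log2 fold change of 1.97 in LD/GD and 2.38 in LC/GC. A difference of the lactose effects was called for 17 of the 136, near the 9.94% of all genes. Across 8487 genes in both fits the Pearson correlation was 0.52 and the Spearman correlation 0.34, a description across genes, which are not independent replicates.

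The genes called in LC/GC had medians closer to 0 in LD/GD. Of the 819 genes upregulated in LC/GC and tested in LD/GD, 547 (66.8%) were above 0 in LD/GD, against 45.3% of all genes tested, and their median was 0.27 in LD/GD and 1.21 in LC/GC. Of the 980 genes downregulated in LC/GC and tested in LD/GD, the median was -0.37 in LD/GD and -0.84 in LC/GC. Among the 880 genes upregulated in LC/GC, 295 (33.5%) were called for the difference, against 9.94% of all genes, 294 of them toward a smaller effect under DTT. Among the 1019 downregulated in LC/GC, 200 (19.6%) were called, 190 of them toward a smaller effect. These genes were chosen by LC/GC, and the difference uses the same LC and GC libraries as that choice, so the shares are a description. The number called for the difference was 535 without replicate 2 of Δ*res2* LD, 564 and 578 without replicate 2 of Rut-C30 LD and replicate 1 of Δ*res2* LD, 550, 548 and 565 without replicates 1 and 2 of Δ*res2* LC and replicate 2 of Rut-C30 LC, and 1828 without replicate 1 of Δ*res2* GD.

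**Figure D4:**
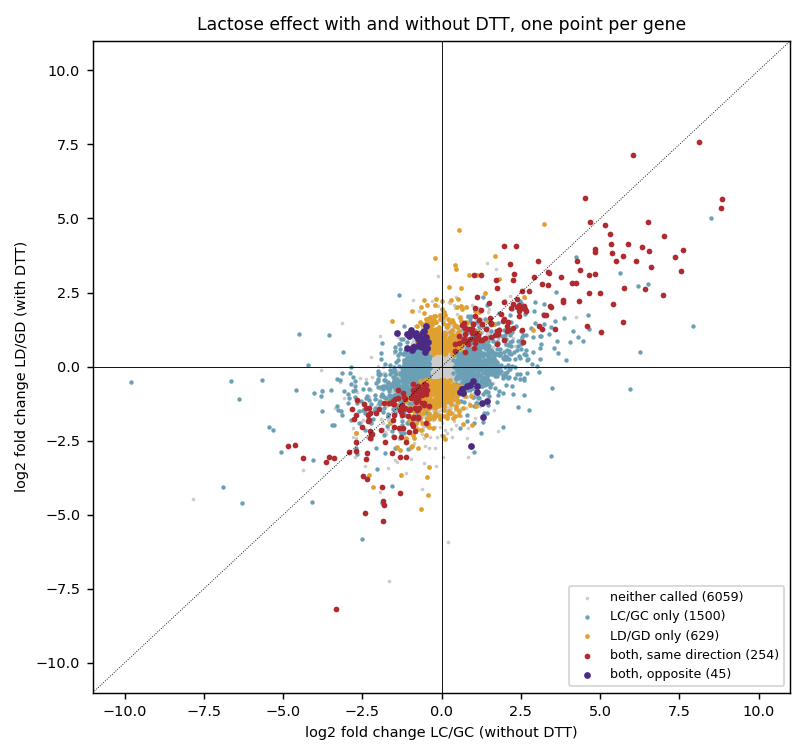
Log2 fold change of each gene in LD/GD (y axis, with DTT) against LC/GC (x axis, without DTT), with the dotted line marking equal values. Of the 8487 genes, 254 were called in the same direction in both (red), 45 in opposite directions (purple), 629 in LD/GD only (orange) and 1500 in LC/GC only (blue). The genes upregulated in both had medians of 1.97 in LD/GD and 2.38 in LC/GC.

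The cellulose group kept its direction at levels far below those without DTT. All 12 genes were upregulated in LC/GC too, against 9.98% of all genes, with a median of 5.62. In LD/GD minus LC/GC, 12 of 12 had a fitted value below 0, against a median of -0.02 over all genes. The members were chosen with results of these data known, so the signs are a description. The difference was called for 2 of the 12, against 9.94% of all genes. These were *cel74a* (-3.90 ± 0.94, adjusted p = 0.0183) and *swo1* (-3.27 ± 0.76, adjusted p = 0.0151, edgeR), whereas that of *cbh1* was -1.99 ± 1.19 (adjusted p = 0.329, edgeR). *cbh1* had 13613 ± 1629.7 in LD and 2675747 ± 423263 in LC (mean ± SD, n = 4), so that the LD level was 0.509% of the LC level, with 1030.2 ± 717 in GD and 50606 ± 53450.4 in GC. The median of this LD share of LC was 0.711% in the cellulose group and 0.483% in the xylan group, against 103% over the 7623 genes that averaged 100 or more normalized counts. It was 12.3% for the β-glucosidases and 70.8% for sugar transport and sensing, where *hxt13* stood at 954% and *crt1* at 27.6%. The GC libraries of *cbh1* lay between 877 and 126082, so that LC/GC of these genes had wide errors, 5.73 ± 1.28 for *cbh1*.

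In the xylan group, 11 of 13 genes were upregulated and 1 was downregulated in LC/GC, against 9.98% and 11.6% of all genes. The median was 4.998, and 5 were called for a smaller effect under DTT, against 9.94% of all genes called either way. Among these 5 was the arabinofuranosidase gene *abf1*, which had 65.2, 61.7, 80.2 and 64.7 in LD and 17.1, 80.6, 61.3 and 32.1 in GD, which overlapped, and 14426, 14897, 11674 and 15266 in LC against 158, 167, 63.4 and 318 in GC, with a log2 fold change of 0.50 ± 0.47 in LD/GD and 6.26 ± 0.52 in LC/GC (difference -5.76 ± 0.65, adjusted p = 0.000547, edgeR). *cel3d* had 1583, 1562, 1526 and 1549.6 in LC and 203, 173, 104 and 219 in GC, a log2 fold change of 3.10 ± 0.23, and its difference was -2.86 ± 0.45 (adjusted p = 0.00193, edgeR). *xyn1*, *xyn5* and *man1* were upregulated under DTT with called differences of -4.17, -3.66 and -3.64, and *bga1*, not called in LD/GD, had -3.23. Among genes that averaged 100 or more normalized counts, those with the largest LC/GC and a called difference further included TrG0885-2W (8.85 in LC/GC), TrE0137W (7.92), TrG1184C (6.40) and TrC1507C (6.19). Of these 4, TrE0137W (1.37) and TrC1507C (2.74) did not pass the test in LD/GD, and both did without replicate 1 of Δ*res2* GD (4.17 and 4.51), where that library was the highest of GD. TrG1184C (2.62 ± 0.42 in LD/GD) lost its call without any 1 of the LD libraries (adjusted p up to 0.0673).

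Among genes that averaged 100 or more normalized counts over the 16 libraries, the 8 with the largest decrease in LC/GC and a called difference were examined, and 7 of them did not pass the test under DTT. A choice by a called difference favours genes with a small LD/GD, so this count is a description. Of all 1019 genes downregulated in LC/GC, 830 were tested but not called in LD/GD. TrF0383C had 15.5, 16.7, 14.6 and 12.2 in LD and 3.66, 41.96, 28.7 and 11.6 in GD, against 2.32, 0, 0.932 and 0 in LC and 1791, 947, 733 and 66.4 in GC, where the GC libraries stood alone. The log2 fold changes were -0.53 ± 0.65 (LD/GD) and -9.80 ± 1.13 (LC/GC), a difference of 9.18 ± 1.35 (adjusted p = 0.00137, edgeR). TrF0388W (-1.08 in LD/GD, -6.38 in LC/GC), TrF0389C (1.08 and -3.54) and TrF0392C (-0.41 and -3.30) lie within 1320453-1344800 of chromosome VI together with TrF0383C. TrB1600C, annotated with amino acid metabolism, had 37078, 33164, 38939 and 40589 in LD and 10996, 57004, 65374 and 42782 in GD, against 991, 995, 1243 and 1235 in LC and 9808, 9780.4, 7564 and 10512 in GC, so that every library with DTT lay above every library without it. TrC1156C (-0.45 and -5.68) and TrG0053C (-0.81 and -3.76) were the other 2. None of these 7 genes passed the test in LD/GD (0 of 7), and TrF0392C did without replicate 1 of Δ*res2* GD (-0.80, adjusted p = 0.0112, edgeR).

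Decreases present in both comparisons included TrF1025W, with 51.9, 50.2, 57.5 and 51.02 in LD and 556, 373, 315 and 493 in GD (-3.05 ± 0.24 in LD/GD, -3.56 ± 0.27 in LC/GC), and TrA0501W, with 880.4, 769, 624 and 635 in LD and 5315, 5503, 1955 and 8501 in GD (-2.90 ± 0.42 and -2.93 ± 0.24). Each had all 4 LD libraries below all 4 GD libraries. TrE0127W (-3.22), TrG0604C (-2.85), TrF0252W (-2.68) and TrF0836C (-2.53) were the others, and their calls in LD/GD were lost without any 1 of the LD libraries, that of TrE0127W also without replicate 2 of either strain in GD, that of TrF0252W without replicate 2 of Δ*res2* GD and that of TrG0604C without replicate 1 of Rut-C30 GD (adjusted p up to 0.157). The call of TrA0501W was lost without either Rut-C30 LD library or replicate 2 of Δ*res2* LD (adjusted p up to 0.0586). The sterol glycosyltransferase gene TRIREDRAFT_77547 belonged here too, with -4.61 in LC/GC and a smaller decrease under DTT.

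Some differences were larger with DTT than without it. Of the 460 genes upregulated in LD/GD, 185 were not upregulated in LC/GC and were called for a larger lactose effect under DTT, and of the 481 downregulated, 106 were not downregulated in LC/GC and were called for a lower one. Over all 8947 genes tested for the difference, 431 were called toward a higher and 458 toward a lower lactose effect under DTT. The genes counted here were chosen by LD/GD, and the difference uses the same LD and GD libraries, so the counts are a description. TrB1555C had 265, 201, 237 and 248 in LD and 7.31, 13.4, 2.96 and 21.4 in GD, against 8.105, 2.7, 7.46 and 3.45 in LC and 6.604, 4.31, 8.57 and 1.49 in GC. Only LD was high, and the gene was too low for a test in LC/GC (difference 4.32 ± 0.81, adjusted p = 0.00476, edgeR). TrD1296C had a difference of 4.25 ± 1.004 (adjusted p = 0.0165, edgeR), and TrG0129W, with 125, 99.9, 117 and 137 in LC and 115, 141, 117 and 232 in GC, one of -3.06 ± 0.42 (adjusted p = 0.000963, edgeR). *ilv5* (-2.57), *eno1* (-1.72) and *uga1* (-1.24) were also called for a lower lactose effect under DTT, and none of the 3 passed the test in LC/GC (0 of 3).

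Opposite calls were made for 45 genes, 32 upregulated in LD/GD and downregulated in LC/GC and 13 the other way. The 6 genes given here were chosen after the values were seen. TrB1340W, annotated with N-acetylglucosamine metabolism, had 4982, 4934, 1715 and 1801 in LD and 1605, 1389.6, 1298 and 1093 in GD, against 208, 163, 122 and 78.1 in LC and 319, 430.4, 394 and 247 in GC. The Δ*res2* libraries were highest in LD, and the log2 fold change was 1.12 ± 0.25 in LD/GD and -1.40 ± 0.27 in LC/GC. TrA0460W, annotated with formate catabolism, had 643, 749, 727 and 622 in LD and 1529, 1348, 1545 and 1692 in GD, with 92548 ± 8218 in LC and 32878 ± 9497 in GC (mean ± SD, n = 4). Its level was far lower with DTT in both carbon sources, and the log2 fold change was -1.17 ± 0.13 in LD/GD and 1.44 ± 0.26 in LC/GC. TrC0270W (-1.69 and 1.30) and TrA2090C (-1.22 and 1.27) had the same pattern, and TrF0257C (1.10 and -1.08) and TrA1451C (1.11 and -1.04) that of TrB1340W. In TrA1451C the lowest LD library, replicate 1 of Rut-C30, lay below the highest GD library, replicate 1 of Δ*res2*. Without any 1 of the LD libraries the LD/GD calls of TrB1340W, TrA1451C and TrA2090C were lost, that of TrA1451C also without either Rut-C30 GD library and that of TrB1340W without replicate 2 of either strain in GD (adjusted p up to 0.113). The split of the LC/GC calls moved with the scaling, with 880 genes up and 1019 down with TMM factors and 969 and 716 with the size factors of DESeq2.

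Some genes that changed in LD/GD lay next to others called in the same direction. Positions are those of the deposited annotation of the QM6a genome. Of the 454 upregulated genes with a position, 87 (19.2%) had an upregulated neighbour, against 8.85% of all genes tested, and of the 470 downregulated genes 93 (19.8%) had a downregulated neighbour, against 9.44%. There were 8 runs of at least 3 adjacent upregulated genes and 5 of downregulated genes. On chromosome V, *axe1*, *cip1* and *cel61a* follow each other at 2216541-2222382, with log2 fold changes of 3.56 to 5.70 in LD/GD and a called increase in LC/GC too.

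The longest run, of 6 genes from *opt2* (TrC1163C) to TrC1168C at 3941502-3963574 of chromosome III, holds *crt1* and had log2 fold changes of 0.91 to 3.72. Besides *crt1*, its members include TrC1165C (2.92) and TrC1167C (3.10), and in LC/GC TrC1165C was called but *crt1* was not (1.69 ± 0.58, adjusted p = 0.0738, edgeR). Still, *crt1* lay between 735522 and 876831 normalized counts in LC and between 48175 and 384225 in GC. The difference of its lactose effects was not called (adjusted p = 0.265, edgeR). TrD1296C, TrD1297W and TrD1298C on chromosome IV (4075497-4078664) had 2.04 to 4.62 and lie beside TrD1300W, and none of the 3 was called in LC/GC (0 of 3). The neighbour between them, TrD1299W (2.36), did not pass the test. On chromosome VII, TrG0129W, TrG0131C, TrG0132W and TrG0133W at 368408-375457 were all downregulated, with -8.18 to -3.39, and 3 of these 4, all but TrG0133W, were called for a difference from LC/GC. The 3 genes before them, TrG0126C (-7.23), TrG0127W (-3.58) and TrG0128W (-5.91), did not pass the test. Replicate 2 of Δ*res2* was by far their highest GD library (26280, 1507 and 8326 normalized counts). Replicate 1 of Δ*res2* GD (32.9, 15.8 and 23.2) lay within or below the LD range. Chromosomes differed little, with 3.85% to 6.43% of the tested genes upregulated and 4.97% to 6.50% downregulated.

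**Figure D5:**
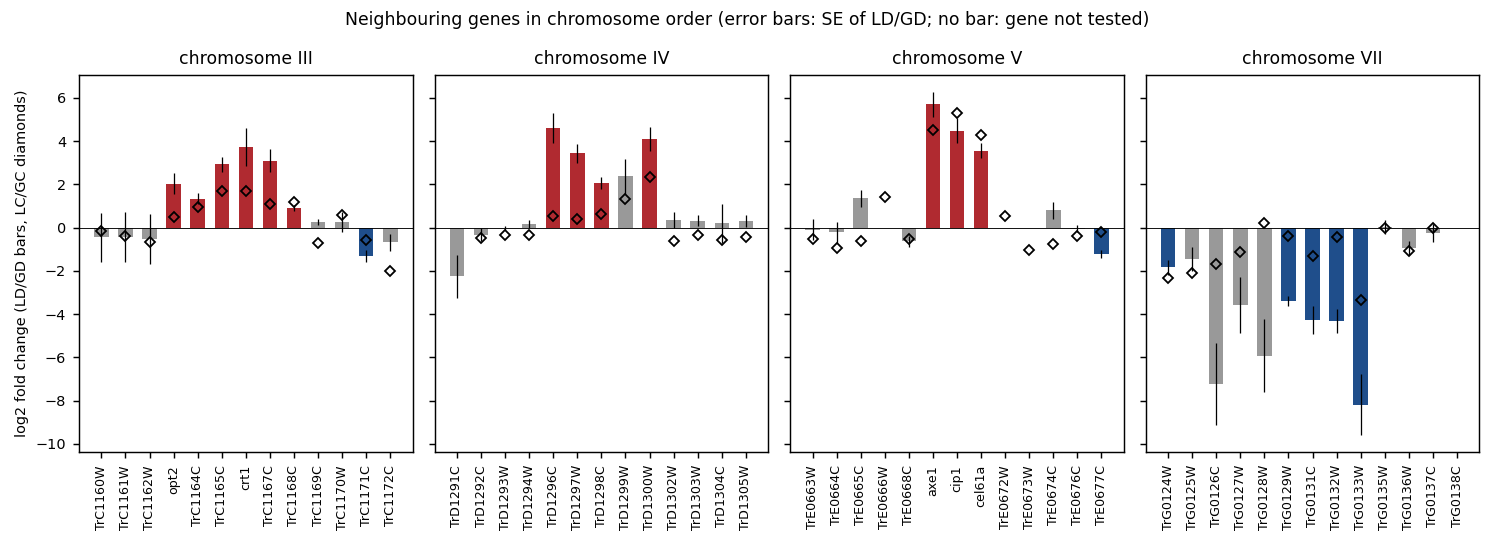
Log2 fold change in LD/GD of neighbouring genes in chromosome order (bars, with the SE) and in LC/GC (diamonds) around 4 runs on chromosomes III, IV, V and VII. Red bars were upregulated, blue bars downregulated and grey bars not called, and genes without a bar were not tested. The bar of *crt1* (3.72) is called and its diamond (1.69) is not, and the difference between them was not called. *axe1*, *cip1* and *cel61a* are raised in both, and TrG0133W has the largest decrease (-8.18).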

How the data were processed

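RNA-seq of all 16 cultures was analysed. The raw counts per gene were deposited by the authors, whose processing notes name STAR 2.7.8a, HTSeq 0.5.3 and DESeq2 1.8.1. The strand setting is not given in the sources used here. Columns without a sample numbered 0. LD and GD libraries were fitted with edgeR 4.0.16 in R 4.3.3 (limma 3.58.1), with filterByExpr, TMM factors, the robust quasi-likelihood test, strain as covariate and Benjamini-Hochberg adjustment over all genes tested, and LC/GC likewise. The difference of both effects was a contrast in a fit of all 16 libraries, with a mean per condition and strain as covariate. That of the strains was the strain by carbon source term in a fit of the 8 LD and GD libraries. Calls had an adjusted p under 0.05, and the SE is the log2 fold change divided by the root of F. The p-values of LD/GD, LC/GC and their difference measure the spread of the cultures around a fit with additive strain. That spread includes the duplicates and any difference of the strains in the effects. It was estimated per gene over all conditions of a fit together, although LD and GD had biological coefficients of variation of 0.0618 and 0.525. The statistics were tested on simulated data. Those counts were drawn with the same spread for every gene of a condition, and no library was made to stand apart.

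Named were the 12 largest changes each way in LD/GD (mean of at least 100 normalized counts, groups not overlapping), the 8 largest each way called alike in LD/GD and LC/GC and the 8 largest each way in LC/GC with a called difference (both with a mean of at least 100 over all 16 libraries), and the called members of 17 lists of 112 genes, 107 of which were paired with an identifier. Members and lists were chosen with earlier results of these data known. Alternatives were DESeq2 1.42.0, its size factors, no filter, voom, all 16 libraries, a replicate block, stricter limits, 1 strain alone and each library left out.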

Additional observations from a re-analysis of the deposited data

Results flagged for a closer look

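Among 193 groups of 4 libraries examined, 5 held a library far from the other 3, where chance gives about 1 in 20. TrF0477C had 1.98 normalized counts in replicate 1 of Rut-C30 GD and 0 in the other GD libraries. *abf3* had 38.5 in the same library, above the other GD libraries. *xyn5* had 4.88 in replicate 1 of Δ*res2* GD, below the others. In LD, *xlt1* had 1261 in replicate 1 of Rut-C30, above the others, and TrC1156C had 9.94 in replicate 1 of Δ*res2*, below the others.

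The lactose effects with and without DTT differed for 40 named genes by the edgeR contrast, 27 below 0 and 13 above 0 in LD/GD minus LC/GC. The differences below 0 on the log2 scale were largest for TrE0137W (-6.96), *abf1* (-5.76), TrF0049W (-4.54), *xyn1* (-4.17), TrG0132W (-4.07), TrC1507C (-3.97), *cel74a* (-3.90), TrG1184C (-3.79) and *xyn5* (-3.66). They were smaller for *man1* (-3.64), TrA1814C (-3.40), *swo1* (-3.27), TrG0885-2W (-3.11), TrG0131C (-3.08), TrG0129W (-3.06), TrC0270W (-2.99), *cel3d* (-2.86) and TrA0460W (-2.63). The others below 0 were *ilv5* (-2.57), TrA2090C (-2.49), *bip1* (-1.80), TrF0589C (-1.75), *lcl2* (-1.73), *eno1* (-1.72), *hrd1* (-1.50), *uga1* (-1.24) and *ace3* (-0.99). *bga1*, outside the rule for naming genes, had -3.23. The differences above 0 were those of TrF0383C (9.18), TrF0388W (5.35), TrC1156C (5.30), TrF0389C (4.60), TrB1555C (4.32), TrD1296C (4.25) and TrG0053C (2.93), followed by TrB1600C (2.91), TrF0392C (2.90), TrB1340W (2.57), TrF0257C (2.13), TrA1451C (2.10) and TRIREDRAFT_77547 (1.95).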

How the results depend on the processing

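Of 1550 fold changes of 97 named genes under an alternative, 1125 kept direction and side of the threshold, 399 lost their call, 9 gained one and 17 turned their sign. Of the 80 named genes called in LD/GD, 80 kept their call with DESeq2, with its size factors and without the filter, 72 with voom, 71 with all 16 libraries, 33 in Rut-C30 alone and 0 of 79 in Δ*res2* alone. Calls lost with voom were those of *cip2*, *cel61b*, *xyn1*, *xyn2*, *bxl1*, *opt2*, TRIREDRAFT_122992 and TrA1451C, and with all 16 libraries those of *cel3b*, *cel3c*, *cel74a*, *cel61b*, *egl1*, *snq2*, TRIREDRAFT_82623, *bxl1* and *xyn2*.

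LD/GD genes up and down, against 460 and 481, numbered 883 and 1094 with DESeq2, 277 and 250 in Rut-C30 alone, 0 and 0 in Δ*res2* alone, 13 and 9 with the limits of the study (adjusted p under 0.005, log2 beyond 2, mean of at least 100) and 263 and 256 beyond a log2 fold change of 1. With all 16 libraries 729 were down. Genes up and down in LC/GC, against 880 and 1019, numbered 0 and 0 in Rut-C30 alone, 285 and 169 in Δ*res2* alone and 99 and 42 with the limits of the study, and 415 were down beyond 1. The strain difference had 13 calls with DESeq2, against 0. The difference from LC/GC, against 889, had 1388 with DESeq2, 557 with voom, 341 in Rut-C30 alone, 0 in Δ*res2* alone and 60 with the limits of the study. Genes up and down in both comparisons, against 136 and 118, numbered 284 and 303 with DESeq2, 0 and 0 in either strain alone and 2 and 3 with the limits of the study, and 70 were down in both beyond 1. The limits of the study were applied here to the edgeR fits of both strains together. The study used DESeq2 and compared conditions within each strain, and it reports more LD/GD genes in each. The cause was not tested, apart from fewer libraries or stricter limits by construction.

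With 1 library left out, the ranges were 87 to 1414 up and 50 to 1458 down in LD/GD, 489 to 1287 up and 295 to 1119 down in LC/GC, 0 to 2059 for the strain difference, 535 to 1828 for the difference from LC/GC, and 43 to 248 up and 21 to 325 down in both.

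Whether duplicate numbers pair the samples could not be settled. Deviations of same-numbered LD and GD libraries correlated at -0.17 in Δ*res2* and 0.01 in Rut-C30 (LC and GC -0.06 and 0.24). Each value rests on a single difference of duplicates per condition, taken across genes that are not independent. With the replicate block, 49 of the 80 named calls held and LD/GD had 135 up and 91 down, LC/GC 716 and 566, both comparisons 63 and 28, the difference 826 and the strain difference 0.

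Signs that turned all belong to genes without a call in LD/GD. With voom the log2 fold change was 0.088 for TrF0392C, 0.025 for TrB1600C and 1.05 for *cta1*. In Rut-C30 alone it was 0.058 for TrC1156C, 1.01 for *cta1*, -0.033 for *vib1* and -0.15 for *pdi1*. In Δ*res2* alone it was 0.021 for TrB1600C and -0.46 for TrE0137W, and with the replicate block 0.93 for *cta1*. With 1 library left out it spanned -0.92 to 0.17 for TrF0383C, -0.73 to 0.38 for TrC1156C, -0.80 to 0.47 for TrF0392C, -0.56 to 0.30 for TrB1600C, -0.013 to 0.65 for *cel3d*, -1.33 to 2.11 for *cta1* and -0.056 to 0.29 for *pdi1*.

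Genes at 0 counts in most GD libraries, such as TrA0867C and TrF0477C, rest on few counts.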
